A study of Mus musculus with 31 samples.

Results

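Livers of 4 male mice heterozygous for a mutant Dll1 allele were compared with a pool of wild-type liver RNA on dual-colour cDNA arrays. The RNA of each mutant mouse was hybridised on 2 arrays with the dyes swapped, so 8 of the 31 arrays of the series are liver arrays. Brain, spleen and thymus of the mutants were measured in the same way against wild-type pools of their own organ. The mutant mice were 17 weeks old and the males behind the pool 18 weeks. The labels name neither the allele nor the strain. The study's methods describe Dll1 tm1Gos, a lacZ insertion that disrupts the coding sequence that was brought from 129X1/SvJ onto C3HeB/FeJ. The labels list 4 wild-type animals in the liver pool, while their labelling text speaks of 6. The pool was 1 sample, so the spread between wild-type livers was not measured.

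Dll1 (delta-like 1) is a membrane-bound ligand of the Notch receptors. Ligand binding lets ADAM proteases and then gamma-secretase cut the receptor, and the freed intracellular domain acts with Rbpj on target genes of the Hes and Hey families. In liver, Notch signalling is best known for guiding the formation of bile ducts, whose main ligand is Jag1. Hepatocytes make most of the plasma proteins, and they synthesise cholesterol, fatty acids and bile acids. The study chose liver for its part in energy metabolism.

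The value of each spot is a log2 ratio, and each spot is 1 row of the table. Gene names were taken from an inferred match of rows to probes, and a name is called uncertain where its row lies in the last stretch of the table, in which the match could not be checked well. The deposited values had a fine structure that bears on its direction. On each array they lay on the logarithms to base 2 of a linear ratio that had been rounded to 3 decimals, shifted by 1 constant per array. On the 4 liver arrays with the mutant RNA in Cy5, 100% of the values in the coarse part of this scale fell on it when the sign was kept, and 59.4% to 69.1% when the sign was turned. On the 4 dye-swapped liver arrays (mutant RNA in Cy3), 100% fell on it when the sign was turned, and 60.2% to 62.6% when it was kept. The same split held for all 16 arrays of the series with the mutant in Cy5 and all 15 with the mutant in Cy3. The sign of the ratio had thus been turned on the arrays with swapped dyes, and the deposited values run by sample and not by dye. GenePix, the image software the study used, gives red over green by default. With that order the deposited ratio is mutant over pool, and it is read so here. With the opposite order every sign below would turn.

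A ratio of 2 small whole numbers can recur on many spots of an array, and weak spots give such ratios. Such repeated values were used as a mark of weak signal, since intensities were not used here. The mark is indirect, because a stronger spot can fall on the same value. They made up 6.95% of the values of named rows on the liver arrays, against 11.1% in brain, 25.0% in spleen and 12.4% in thymus. None of the values of the 7 rows of hepatocyte markers on the liver arrays was a repeated one, against 7.27% in brain, 28.0% in spleen and 12.2% in thymus. Of the plasma protein rows, 3.98% of the values were repeated in liver, against 15.5% in brain, 27.9% in spleen and 13.2% in thymus. In both lists the liver share lay below that of all named rows in liver, while the shares in spleen and thymus were near those of all named rows there. In brain the hepatocyte marker share also lay below that of all named rows, and the plasma protein share lay above it. Levels of single genes cannot be read from ratios.

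Liver arrays held 19581 to 20583 values (median 20341) for 20794 spots, after 163 values beyond 12 in size were dropped. The largest kept value was 8.91 in size. Array medians lay between -0.05 and 0.08, and the SD of an array was 0.56 to 0.98. Arrays with the same dye order agreed weakly over rows (r = 0.029 to 0.220 in 12 pairs), and arrays with opposite dye order were below 0 in all 16 pairs (-0.194 to -0.025). The 4 pairs of arrays from the same mouse, which are of opposite dye order, had a median r of -0.087. The part of the ratio that goes with the dye was therefore larger than the part that the 2 arrays of a mouse shared. Within each dye order, the deviation of a mouse from the mean of the 4 mice was also taken. Over rows, the deviations on the 2 arrays of a mouse correlated at -0.033 to 0.008 (median -0.020). Between different mice the median was 0.006. Differences between single mice below are thus described only, and whether they lie in the animals was not tested. Averaging the swapped arrays removes the dye part from the mean of a mouse only where it is equal and opposite on the 2 arrays. Whether it was so was not tested. The dye orders are given apart for some of the groups and genes that turned with the dye. Others given by their mean alone turned as well.

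**Figure D1:**
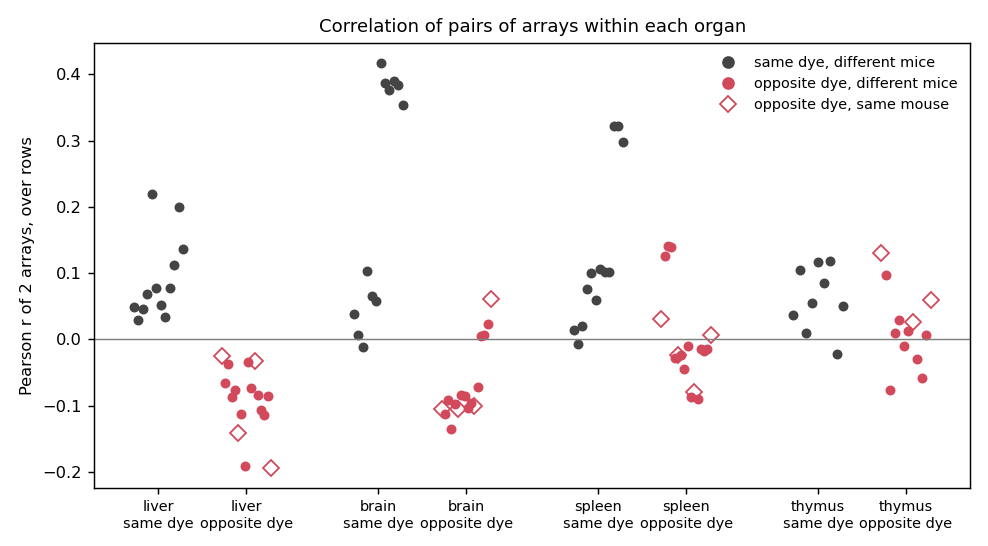
Each point is the Pearson correlation, over rows, of 2 arrays of the same organ, with liver at the left and grouped by whether the mutant RNA carried the same or the opposite dye. In liver the 12 same-dye pairs lay above 0 and the 16 opposite-dye pairs, those of the same mouse included, lay below 0.

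No row differed from the wild-type pool in liver past an adjusted p of 0.05. The limma fit covered 19973 rows, and 0% were called. At an unadjusted p under 0.05, 539 rows were higher (2.7%) and 357 lower (1.79%). Averaged to genes, 0 of 8767 were called (0%), with 228 higher (2.6%) and 173 lower (1.97%) at an unadjusted p under 0.05. The smallest adjusted p was 0.637 for rows and 0.218 for genes. What follows therefore describes measured ratios, and no gene is called changed.

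Enzymes of cholesterol synthesis stood lowest among the metabolic groups. Of 12 measured genes, 9 had a mean ratio below 0, and the median log2 ratio was -0.28, against 0.01 over all genes, of which 47.2% were below 0. None of the 12 was called, and 4 had an unadjusted p under 0.05, all of them lower: Hmgcs1, Fdps, Sc5d and Ebp. Fewer hepatocytes and less RNA per hepatocyte cannot be told apart on such arrays. The 5 hepatocyte markers tested had a median of 0.02, with 3 above 0 and 2 below. That median came from 0.32 on the Cy5 arrays and -0.30 on the Cy3 arrays. Of 50 plasma protein genes 36 were below 0 and 14 above. The share of hepatocytes was not tested. The median of the cholesterol synthesis list was -0.22, -0.31, -0.18 and -0.58 in mice 1 to 4. It was -0.11 on the arrays with the mutant in Cy5 and -0.39 on those with the mutant in Cy3.

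Hmgcs1 encodes the cytosolic HMG-CoA synthase, which makes the substrate of HMG-CoA reductase, and it is represented by 2 rows. On the first row the 4 mice had log2 ratios of -0.07, -0.84, -0.44 and -0.57 with the mutant in Cy5, and -0.22, -1.46, -1.43 and -0.96 with the mutant in Cy3. On the second row they had -0.66, -0.52, -0.33 and -0.68 in Cy5, and -0.10, -0.18, -1.71 and -0.68 in Cy3. All 16 values were below 0, and mouse 1 was nearest to it. The gene mean was -0.68 ± 0.30 (SD, n = 4), with an adjusted p of 0.895 in the limma fit of genes. Of the 16 values 1 was a repeated one.

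Fdps encodes farnesyl diphosphate synthase, which builds the last intermediate that the sterol branch shares with other isoprenoids. Its log2 ratios were -0.10, -0.34, -0.38 and -0.49 with the mutant in Cy5, and -0.58, -1.04, -0.25 and -1.22 with the mutant in Cy3, so that all 8 lay below 0, and 2 of the 8 were repeated values. The mean was -0.55 ± 0.27 (SD, n = 4, adjusted p = 0.895 in limma). Ebp, the sterol isomerase that acts late in the pathway, was also below 0 on all 8 arrays. It had -0.09, -0.12, -0.07 and -0.01 in Cy5, and -0.28, -0.40, -0.61 and -1.18 in Cy3, and a mean of -0.35 ± 0.18. The Cy5 values of Ebp were close to 0, and most of its mean came from the Cy3 arrays.

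Sc5d, the sterol C5-desaturase, was below 0 on 7 of 8 arrays. Its 4 mice had mean log2 ratios of -0.58, -0.58, -0.06 and -0.60, with mouse 3 apart from the others. Sqle, the epoxidase that commits squalene to sterols, had 0.21, -0.75, -0.18 and -0.56 in the 4 mice. Msmo1, a sterol methyl oxidase, had 0.08, -0.34, 0.02 and -0.70. Both were lower in mice 2 and 4 and near or above 0 in mouse 1. Dhcr7, the last reductase of the pathway, had -0.40, -0.06, -0.18 and -0.68, under an uncertain name. The early enzymes Mvk, Pmvk and Mvd, with Fdft1 and Cyp51, had means between -0.04 and 0.14.

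**Figure D2:**
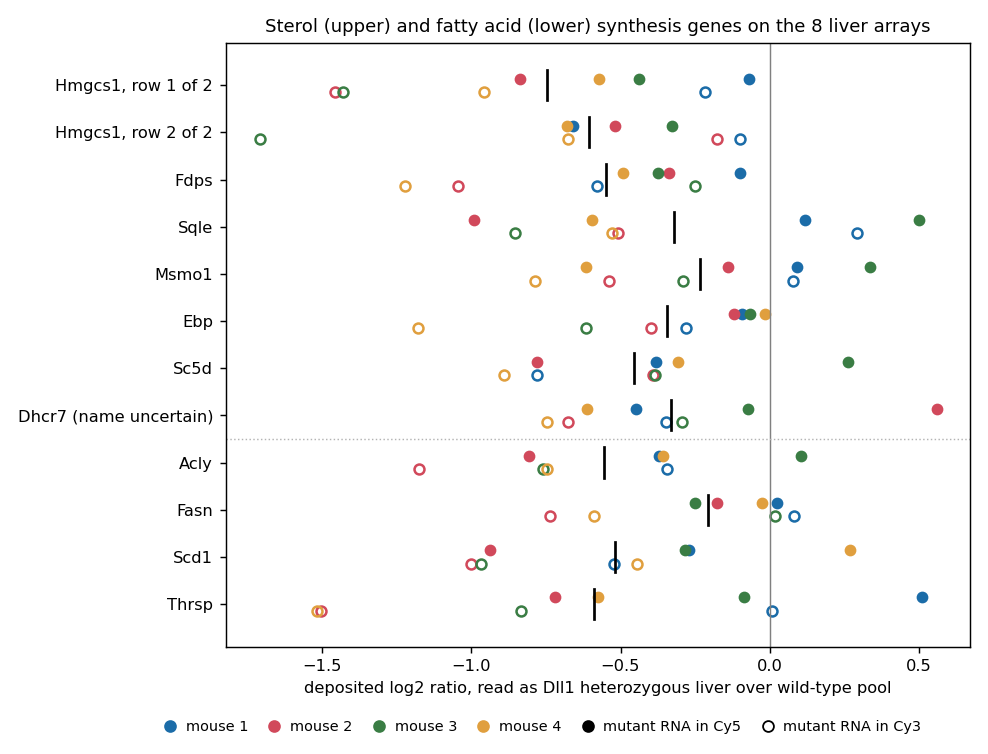
Log2 ratio of heterozygous Dll1 liver over the wild-type pool for each of the 8 arrays (filled, mutant RNA in Cy5; open, mutant RNA in Cy3; colours, mice), with a black bar at the mean of each row. Both rows of Hmgcs1, Fdps and Ebp lay below 0 on all 8 arrays, while Sqle, Msmo1, Fasn and Thrsp had values on both sides of 0.

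Several sterol synthesis rows kept 1 sign across both dye orders. Of 13 sterol synthesis rows with a value on all 8 liver arrays, 4 were below 0 on all 8, while 37 of 11001 named rows were (0.336%). On at least 7 of the 8 arrays, 7 of the 13 were below 0, against 3.06% of named rows. Rows above 0 on the 4 Cy5 arrays and below 0 on the 4 Cy3 arrays were 0 of the 13, which is near the 4.28% of named rows. Hmgcs1 and its pathway were looked at with the study's interest in them known, so these counts are a description and not a test.

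In the other organs the same 12 genes had medians of -0.08 in brain, 0.06 in spleen and 0.01 in thymus, against -0.28 in liver. Fdps averaged -0.55 in liver and 0.05 over the other organs, a difference of -0.60 (unadjusted p = 0.0250, adjusted p = 0.955 in the limma fit of the 4 organs). In spleen the 4 mice had 1.17, -0.39, -0.04 and -0.17 for Fdps, so mouse 1 alone was above 0 there. The spleen arrays of mouse 1 lacked 37.9% and 24.8% of their values, more than any other array of the series. Sc5d averaged -0.46 in liver and 0.03 elsewhere, a difference of -0.49 with the same adjusted p of 0.955. The first row of Hmgcs1 had -0.75 in liver and 0.48 elsewhere, where the 3 spleen mice with a value had 4.13 (mouse 1), 1.38 and 0.65. Its second row had -0.61 in liver and -0.25 elsewhere. Ebp averaged -0.35 in liver, against -0.06 in brain, -0.62 in spleen and -0.80 in thymus. Fdps and Sc5d thus had lower ratios in liver than elsewhere, but none of these differences passed the threshold.

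Genes of fatty acid and triglyceride synthesis were mixed. Of 19 measured genes 11 had a mean below 0, with a median of -0.09, and 3 had an unadjusted p under 0.05, all lower. Acly, which makes cytosolic acetyl-CoA from citrate, had mean log2 ratios of -0.36, -0.99, -0.33 and -0.55 in the 4 mice, and 7 of its 8 arrays were below 0. Scd1, the stearoyl-CoA desaturase, had -0.40, -0.97, -0.63 and -0.09, also with 7 of 8 arrays below 0. Thrsp, a nuclear protein induced with lipogenesis, had 0.26, -1.11, -0.46 and -1.05. Mouse 1 was above 0 for Thrsp and nearest to 0 for Fasn, the fatty acid synthase, which had 0.05, -0.46, -0.12 and -0.31.

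The means were -0.56 ± 0.31 for Acly, -0.52 ± 0.37 for Scd1, -0.59 ± 0.64 for Thrsp and -0.21 ± 0.22 for Fasn (SD, n = 4 each, all adjusted p = 0.895 in limma). In the other organs Acly averaged -0.21 and Scd1 -0.24. Dgat1, which forms triglycerides, stood on the other side with 0.32 ± 0.29. Fads1, a fatty acid desaturase, was below 0 on all 8 arrays in 1 of its 3 rows, whose name is uncertain, with values of -0.41 to -0.08. The list median was above 0 in mouse 1 (0.05) and -0.16 to -0.19 in the other mice.

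**Figure D3:**
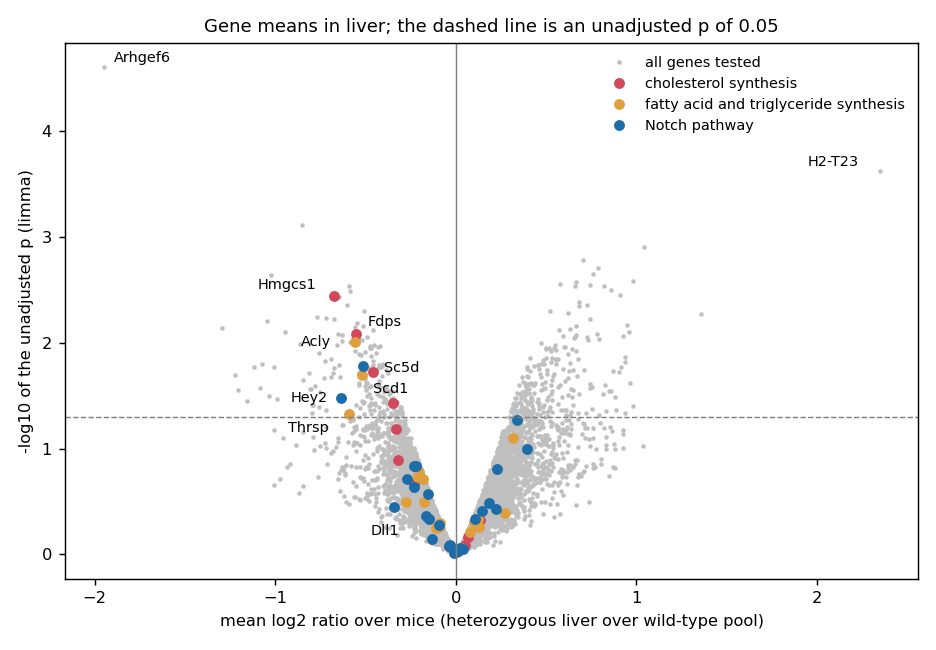
Mean log2 ratio of each gene over the mice (horizontal, heterozygous liver over pool) against the negative log10 of its unadjusted p in the limma fit (vertical), with sterol synthesis in red, fatty acid and triglyceride synthesis in orange and the Notch pathway in blue. Hmgcs1 at -0.68 and Fdps at -0.55 lead the sterol genes on the lower side, and genes at the outer edges such as Arhgef6 and H2-T23 rest on 3 mice.

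Bile acid genes had a median of -0.24, with 8 of 10 below 0. Nr0b2 (SHP), the repressor of bile acid synthesis downstream of the bile acid receptor, had -0.13, -0.24, -0.74 and -0.51 in the 4 mice, a mean of -0.40 ± 0.28. Cyp27a1, of the alternative bile acid pathway, had 0.13, -0.77, -0.47 and -0.39. Amacr, a racemase of side-chain shortening, had 0.10, 0.42, 0.94 and 0.15 and was the highest of the group at 0.40 ± 0.39. That mean came from 0.01 over the Cy5 arrays and 0.79 over the Cy3 arrays. Slc27a5, the bile acid CoA ligase, averaged -0.39 ± 0.78 with mice on both sides of 0, from -0.88 in Cy5 and 0.10 in Cy3. The receptor itself, Nr1h4 (FXR), had a mean of -0.05.

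In the glucose and glycogen group 10 of 13 genes were below 0, with a median of -0.08, from 0.02 over the Cy5 arrays and -0.30 over the Cy3 arrays. Pklr, the liver pyruvate kinase, had -0.08, -0.51, -0.45 and -0.40 in the 4 mice, a mean of -0.36 ± 0.19. Fbp1, which removes phosphate from fructose bisphosphate in gluconeogenesis, had -0.05, -0.16, -0.30 and -0.87. Its mean was -0.03 over the Cy5 arrays and -0.66 over the Cy3 arrays. Slc2a2, the hepatocyte glucose transporter, averaged -0.31 ± 0.21 under an uncertain name. All 4 mice were below 0 for these 3 genes, and mouse 1 was nearest to 0.

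Lipoprotein genes had a median of -0.05, with 11 of 15 below 0. The median was 0.13 over the Cy5 arrays and -0.27 over the Cy3 arrays, and 8 of the 15 genes were above 0 in Cy5 and below 0 in Cy3 (31.9% of all genes). Apom, an apolipoprotein of high-density particles, was the lowest with -0.36, -0.78, -1.29 and -0.17 in the 4 mice (mean -0.65 ± 0.50). Abca1, the cholesterol exporter, was the highest with 0.43 ± 0.42 under an uncertain name. Mttp, which loads triglycerides onto apolipoprotein B, had 2 rows that went apart. The first was below 0 on all 8 arrays (-0.89 to -0.04), and the other ranged from -1.33 to 3.59.

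Among conjugation and antioxidant enzymes 20 of 27 were below 0, with a median of -0.07. Of the 27 genes 17 were above 0 in Cy5 and below 0 in Cy3, with medians of 0.04 and -0.27 in the 2 dye orders. The glutathione transferase Gstm3 had -0.25, -0.54, -0.59 and -0.66 in the 4 mice, a mean of -0.51 ± 0.18, and it was similar in both dye orders (-0.49 in Cy5 and -0.53 in Cy3). Got1, the cytosolic aspartate aminotransferase, averaged -0.34 ± 0.21 within an amino acid and urea group of which 19 of 24 were below 0. The median of that group was 0.03 over the Cy5 arrays and -0.13 over the Cy3 arrays. Calr, a chaperone of the endoplasmic reticulum, was below 0 on all 8 arrays (-0.61 to -0.06), while 12 of the 20 genes of its group were above 0. Of these groups each had 1 gene with an unadjusted p under 0.05, and none was called.

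Most plasma protein genes turned with the dye. Of 50 plasma protein genes 36 had a mean below 0, but 33 of the 50 were above 0 in the Cy5 arrays and below 0 in the Cy3 arrays, against 31.9% of all genes. Their median was 0.18 in the Cy5 arrays and -0.29 in the Cy3 arrays. Trf, the iron carrier transferrin, had 0.58, 0.86, 0.43 and 0.84 in Cy5, and -0.25, -1.28, -0.86 and -1.40 in Cy3, on 1 of its 2 rows. That row was picked for its larger difference between the dyes. The other row of Trf did not turn, with means of -0.07 in Cy5 and -0.09 in Cy3. Alb had a mean of 0.02 ± 0.23, with 0.34 over the Cy5 arrays and -0.30 over the Cy3 arrays. A median below 0 in such a list is thus the remainder of 2 opposite values, and the part of the dye in it was not tested.

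The same held for 48 of 62 genes of oxidative phosphorylation (median -0.06), 44 of 61 cytosolic ribosomal proteins (-0.02) and 9 of 14 cytochrome P450 genes (-0.04). Sterol synthesis differed from them in this respect, with 1 of 12 genes above 0 in Cy5 and below 0 in Cy3, and 7 below 0 in both. Bile acid genes (2 of 10) and endothelial markers (2 of 11) also seldom turned in this way. The sterol list still differed between the dye orders, with a median of -0.11 in Cy5 and -0.39 in Cy3. Ribosomal protein genes had a median of -0.02 in liver, against -0.37 in brain, -0.63 in spleen and -0.03 in thymus.

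**Figure D4:**
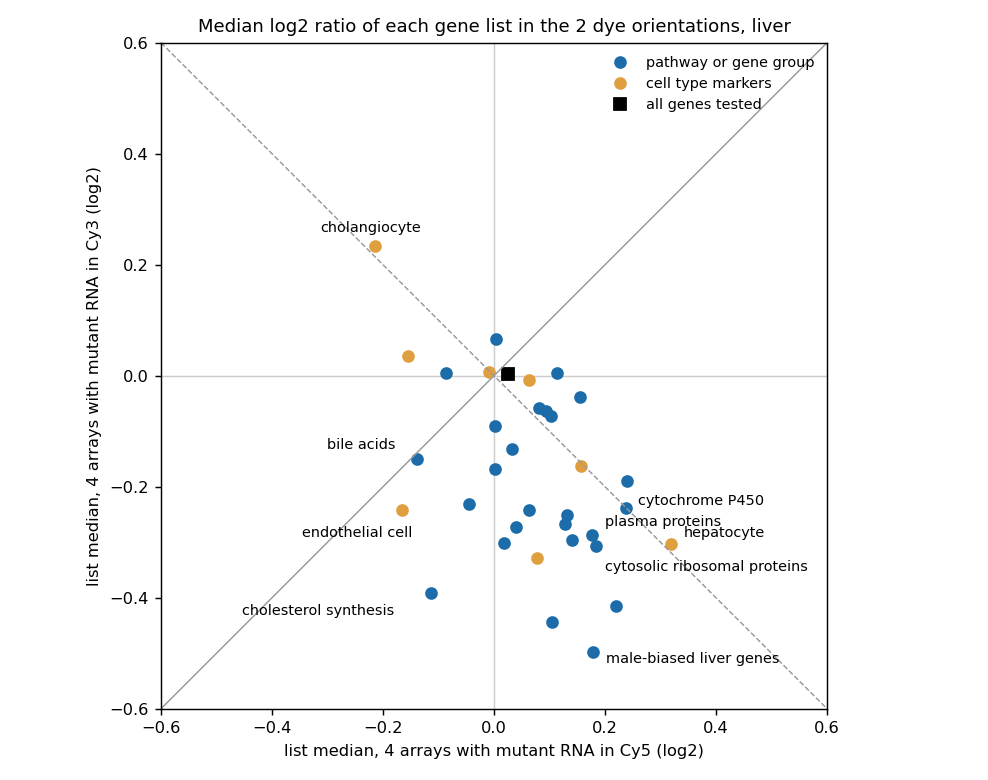
Median log2 ratio of each gene list on the 4 liver arrays with the mutant RNA in Cy5 (horizontal) and the 4 with the mutant RNA in Cy3 (vertical). The solid line marks equal values and the dashed line opposite ones. Cholesterol synthesis (-0.11 and -0.39) and bile acids (-0.14 and -0.15) lay below 0 in both, while plasma proteins and hepatocyte markers lay near the dashed line.

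For Dll1 itself the arrays gave little. The study, citing earlier work, states that liver does not express Dll1. The first of its 2 rows had 5 values, from -2.12 to 2.17, of which 3 were repeated ones. The other had 7 values, from -2.17 to 0.51, under an uncertain name. The mean over the 3 mice with a value was -0.13 ± 0.93, and its sign varied between mice. A change of the size that loss of 1 copy would give was not detectable at this spread, and the labels and methods do not say whether the spots cover the disrupted sequence.

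Of 27 measured Notch pathway genes 15 were below 0 and 12 above, with a median of -0.03. The target Hes1 averaged 0.14 ± 0.29, the mediator Rbpj -0.03 ± 0.16, the ligand Jag1 0.01 ± 0.21 and the receptor Notch2 -0.15 ± 0.47. All of these turned with the dye. Hes1 had 0.43 over the Cy5 arrays and -0.14 over the Cy3 arrays, and Notch2 had 0.19 and -0.49. Rbpj (-0.28 and 0.22) and Jag1 (-0.20 and 0.23) turned the other way. Hey2 and Ncstn had an unadjusted p under 0.05. Hey2, a target of Notch in endothelial cells, had -1.09, -0.57, -1.10 and 0.22 in the 4 mice. It rests on 2 rows that disagreed, since 1 had values on both sides of 0 and the other, whose name is uncertain, was below 0 on all 7 arrays with a value. Ncstn, a subunit of gamma-secretase, averaged -0.51 ± 0.33 under an uncertain name. Mib1, the ligase that activates Notch ligands, was the highest with 0.40 ± 0.51, from 0.00 over the Cy5 arrays and 0.79 over the Cy3 arrays.

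The study named 13 genes for liver and reported all of them as significantly lower in the mutants, and 8 of them had a row here. The study may have chosen this list on these livers, so its counts are no independent evidence. Of the 7 tested, 5 had a mean below 0, with a list median of -0.13, and Hmgcs1 was the lowest. Cth, an enzyme of cysteine synthesis, had -0.03, -0.52, 0.35 and -1.252 in the 4 mice, and 0.23 over the Cy5 arrays against -0.96 over the Cy3 arrays. Cyp2f2, a periportal cytochrome P450, had 0.28, -0.41, 0.11 and -0.48, and likewise 0.44 in Cy5 and -0.69 in Cy3. Cyp2c70, an enzyme of bile acid hydroxylation in mice, had -0.03, -0.69, -0.02 and -0.05, so that mouse 2 made most of its mean of -0.20.

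The kinase Cdk2 averaged -0.05 ± 0.26 over its 2 rows, of which the one with an uncertain name turned sign with the dye in mice 2 to 4. Manf, a secreted protein of the endoplasmic reticulum, averaged 0.12 ± 0.44 over 4 rows, and the ubiquitin ligase Siah1a 0.09 ± 0.45 over 3 mice under an uncertain name. Cul2, also under an uncertain name, had too few mice for the test, and its 6 values ran from -1.251 to 4.30. Among the genes of this list only Hmgcs1 had 1 sign on all arrays.

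Markers of endothelial cells had a median of -0.24, with 8 of 11 below 0. Cdh5 (VE-cadherin) had -0.46, -0.47, -0.17 and -0.60 in the 4 mice, with 1 of its 2 rows under an uncertain name. Stab1, a scavenger receptor of sinusoidal endothelium, had -0.08, -1.19, -0.07 and -0.11, and Pecam1 averaged -0.36 ± 0.78, with 1 of its 2 rows under an uncertain name. Kupffer cell markers had a median of 0.09, with 5 of 8 above 0 and 3 below. Among them Marco, a macrophage scavenger receptor, was at 0.31 ± 0.10, from -0.14 over the Cy5 arrays and 0.75 over the Cy3 arrays. C1qc went the other way at -0.20 ± 0.42. Cholangiocyte, stellate cell, neutrophil and lymphocyte markers had medians between -0.07 and 0.07. Whether the share of these cells moved with any gene above was not tested.

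Haemoglobin differed between mice. The 6 rows of Hba-a1, the alpha chain of haemoglobin, averaged 0.56, -0.08, -0.90 and 0.05 in mice 1 to 4. On the first 5 of these rows mouse 3 had values between -1.72 and -0.41, all below 0 in both dye orders, and mouse 1 had values between 0.17 and 1.04, all above 0. In mouse 4, however, 5 of the 6 rows were above 0 in Cy5 and below 0 in Cy3, and in mouse 2 this held for 3 of the 6. Trf showed that turn in all 4 mice on the row given above, and Hmgcs1 was below 0 in every mouse and dye order. The amount of blood in the livers was not measured otherwise.

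**Figure D5:**
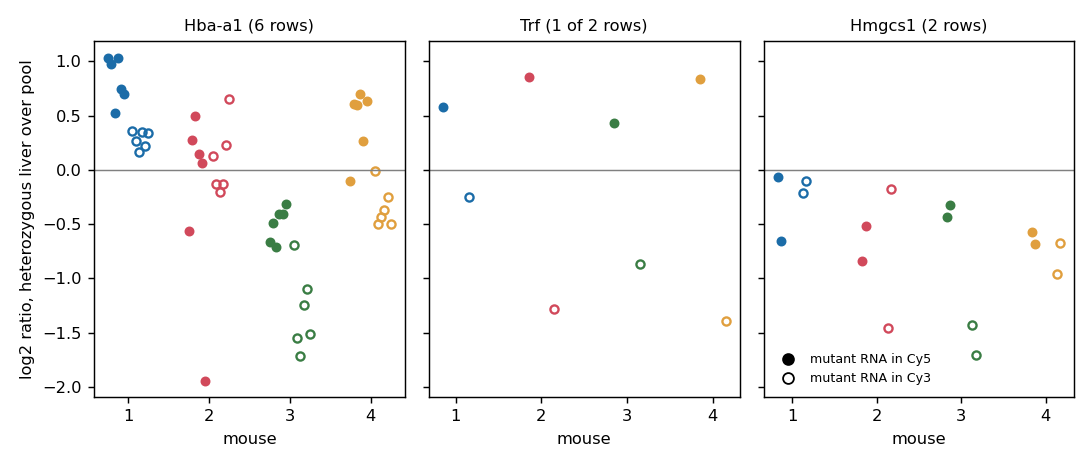
Log2 ratios of heterozygous liver over pool by mouse (horizontal; filled, mutant RNA in Cy5; open, mutant RNA in Cy3) for the 6 rows of Hba-a1, for 1 of the 2 rows of Trf and for both rows of Hmgcs1. Hba-a1 differed between mice 1 and 3 in both dyes but turned with the dye on most rows in mouse 4, and Hmgcs1 was below 0 throughout. The Trf row shown was picked for its larger difference between the dyes and turned sign in all 4 mice. The Trf row not shown averaged -0.07 in Cy5 and -0.09 in Cy3.

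The 6 named rows with the smallest p on the higher side, among rows with all 8 values, were of Bag3, Ap2b1, Aldh3b1, Sirt7, Ipo11 and Ube2q1, all at an adjusted p of 0.921. Bag3, a cochaperone of Hsp70, had 1.46, 1.33, 0.65 and 2.21 in the 4 mice on this row, yet its other row had values between -0.32 and 0.43. Ap2b1, a clathrin adaptor subunit, had 2.06, 1.81, 1.39 and 0.41 on this row, and its other row was below 0 on all 8 arrays. Ipo11, a nuclear import receptor, had 0.71, 0.64, 0.53 and 0.72 on this row and the smallest spread (0.65 ± 0.09). For Aldh3b1, an aldehyde dehydrogenase, the Cy5 arrays averaged -0.25 and the Cy3 arrays 2.34.

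On the lower side the rows were of Kif18b, Fbxw8, Camta2, Acsm1, Dnajc15 and Hmgcs1, also at 0.921. Acsm1, a mitochondrial medium-chain acyl-CoA synthetase, had -0.27, -0.79, -0.88 and -0.65 in the 4 mice and was below 0 on all 8 arrays (-1.15 to -0.15). Kif18b, a mitotic kinesin, had -0.55, -0.95, -1.15 and -0.75, with the dye orders alike (-0.84 in Cy5 and -0.86 in Cy3). Dnajc15, a mitochondrial cochaperone, had -0.995, -1.13, -0.84 and -0.11. The rows of Fbxw8 and Camta2 averaged -0.69 ± 0.15 and -0.59 ± 0.15. Fbxw8 has another row, as have Sirt7 and Ipo11 on the higher side, and those rows are not described here. The Fbxw8 row averaged above held 3 repeated values of 8, and the Sirt7 row among the smallest p held 4 of 8.

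Genes with at least 2 rows were also averaged over their rows, which often disagreed. Over 502 genes with 3 or more rows measured on all 8 liver arrays, the median correlation between rows of a gene was -0.005, and it was over 0.5 for 28 genes. On the higher side stood Col27a1 (0.66 ± 0.24), Bag3 (0.74 ± 0.33), Car5a (0.68 ± 0.33), Pagr1a (0.62 ± 0.29) and Pcdh12 (0.95 ± 0.65), all at an adjusted p of 0.895. The Col27a1 rows differed, with dye means of 1.05 and 1.34 on the first and 0.15 and 0.20 on the second. Car5a, a mitochondrial carbonic anhydrase of liver with 1 of its rows under an uncertain name, had -0.15 over the Cy5 arrays and 1.52 over the Cy3 arrays, and Pagr1a had -0.04 and 1.28. On the lower side, beside Hmgcs1, stood Nptx2 (-0.58 ± 0.16), Fchsd1 (-0.53 ± 0.31), Gtpbp2 (-0.47 ± 0.23) and Arhgef7 (-0.46 ± 0.23). Of these, Gtpbp2 and Nptx2 each had 1 row below 0 on all 8 arrays, in the case of Nptx2 under an uncertain name.

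The 2 largest gene means belonged to Arhgef6 and H2-T23, and both rest on rows with several repeated values, the mark used for weak signal. Arhgef6, an exchange factor for Rac, had -3.50, -1.40, -3.32 and -2.08 in Cy5, and -0.20, -0.99 and -1.62 in Cy3 for mice 1, 3 and 4. Its mean was -1.95 ± 0.17 over these 3 mice, with an adjusted p of 0.637 among rows, and 3 of its 7 values were repeated ones. H2-T23, a nonclassical MHC class I gene, averaged 2.35 ± 0.74 over 3 mice, also with 3 repeated values of 7 on its main row. Over all rows tested, those with no repeated value passed an unadjusted p of 0.05 in 2.97% of cases and those with 3 or more in 13.1%.

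Of 17884 rows with a value on all 8 liver arrays, 62 were above 0 on all 8 and 54 below 0 on all 8, while 5.82% turned sign with the dye on every array (728 above 0 in Cy5 and 312 above 0 in Cy3). The named rows above 0 on all 8 arrays were 30 (0.273%). They included Pld3, a lysosomal exonuclease (mean 0.91), Rai14 (0.69), Ric8a, a chaperone of G protein alpha subunits (0.64), and Tinf2, a telomere protein (0.60). The named rows below 0 on all 8 included, besides the sterol genes, rows of Actb (cytoplasmic actin, -0.55), Pdhb (a pyruvate dehydrogenase subunit, -0.25) and Rptor (a subunit of the mTOR complex, -0.30). Igf2r, a receptor for mannose 6-phosphate, had 1 such row of 3 (-0.35), while the mean of its 3 rows was -0.10. Tpi1, triosephosphate isomerase, had 1 such row of 2 (-0.29) and a mean of -0.15 over both. The named rows below 0 on all 8 were 37 (0.336%), and the sterol synthesis genes made up 4 of them. The genes named here were picked after their values were seen. Whether more rows kept 1 sign than random signs would give was not tested.

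Between liver and the mean of the other organs 0 of 19547 rows passed the threshold (0%), with 450 higher in liver (2.3%) and 489 lower (2.5%) at an unadjusted p under 0.05. Arhgef6 had the smallest adjusted p, 0.115, with -1.95 in liver and 0.30 elsewhere. Among rows with a value in all mice, Ncam1, a cell adhesion molecule, averaged 0.43 in liver and -0.33 elsewhere, with 4 of 4 liver mice above 0. The other rows of Ncam1 were below 0 in liver on average, at -0.02 for the first, and the second has an uncertain name. Rpl4, a ribosomal protein, averaged 0.45 in liver, against -0.35 in brain, -0.84 in spleen and 0.005 in thymus on 1 of its 3 rows, and the other rows had -0.07 and -0.20 in liver. Rps27 averaged 0.15 in liver, against -0.53 in brain, -0.88 in spleen and 0.03 in thymus. Ciz1 averaged -0.39 in liver and 0.57 elsewhere, and Ccl28, a mucosal chemokine, -0.25 and 0.43. The rows of Ncam1, Rpl4, Rps27, Ciz1 and Ccl28 given first here each had an adjusted p of 0.955.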

How the data were processed

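RNA of liver, brain, spleen and thymus was labelled from 20 µg per sample and hybridised to cDNA arrays. The authors read the slides with GenePix, and the deposited values are log2 ratios, 1 for each spot. The normalization and the filter on weak spots are not given in the sources used here, and intensities were not used. The paper gives other numbers for mice, age and RNA input than the labels do, and it cites another record, so the samples may not be the same.

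Values beyond 12 in size were set to missing, a mouse's value was the mean of its 2 arrays and missing if either was missing, and rows or genes with at least 3 mice were tested against 0 with limma 3.58.1 (intercept only, empirical Bayes) in R 4.3.3, adjusted by Benjamini-Hochberg at 0.05. Nothing in the labels says more of the mice than that they are separate animals. Liver was compared with the other organs in 1 limma fit with a mean per organ, without thymus of mouse 2, which has 1 array. Tables and figures were made with Python 3.11.15, pandas 2.3.3, numpy 2.4.6 and matplotlib 3.10.9. The fit was tested on simulated data.

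Row n took the gene of probe n minus 11, an inferred naming. Over all arrays the rows of the same gene correlated best at this displacement (mean r 0.0381 over 5048 pairs, against at most 0.0111 at any other of 201 displacements examined). On the liver arrays alone they did not (0.0111 against at most 0.0163). Plasma protein rows held 3.98% repeated values in liver under this naming and 8.69% with the names as listed. Names in the last 1040 rows are called uncertain. In all, 12760 rows took the name of 9026 genes.

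Each array's constant and sign were found by scanning for the shift that put most values on the scale, within a tolerance of 0.0008. A value was called repeated if its count on an array was at least 2 times the local median count over 31 neighbouring values plus 3. Both measures were added after the data were seen.

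Mouse numbers pair the organs, since a number is 1 animal. Deviations of the same mouse in different organs had a median correlation of -0.004 (-0.091 to 0.069 over 21 pairs). The mouse as a block was an alternative.

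The members, lists and tests were chosen with earlier results of these data known. Genes are named if the study named them for liver, for Dll1, for the smallest p among rows with all 8 values, among genes with several rows or between organs, and for up to 3 list members with the largest mean. Arhgef6, H2-T23, the rows with 1 sign on all arrays and further list members were chosen after their values were seen. Alternatives were leaving out each mouse, other directions, centring, dye fits, missing values and names.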

Additional observations from a re-analysis of the deposited data

Results flagged for a closer look

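Of 89 groups of mice or arrays examined, 8 had a highest or lowest member far from the others by Dixon's 95% criterion, and chance flags about 1 in 20 groups. Sc5d was -0.06 in mouse 3, apart from the other 3 mice near -0.6. Cyp2c70 was -0.69 in mouse 2, and Stab1 was -1.19 in mouse 2. Fchsd1, which encodes a protein with SH3 domains, was -0.99 in mouse 1. The median of the fatty acid and triglyceride synthesis list was 0.0545 in mouse 1, while it was below 0 in the other 3 mice. The median of the glucose and glycogen list was -0.23 in mouse 4. The median of the 5 male-biased liver genes was -0.54 in mouse 4. One liver array, of 8, held 51 values beyond 12 in size.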

How the results depend on the processing

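No row or gene differed past an adjusted p of 0.05 in limma under any alternative: the count stayed 0 for rows (smallest adjusted p 0.102 to 0.997 over 16 alternatives), for genes (0.138 to 0.966 over 7) and for liver against the other organs (0.192 to 1.000 over 8), whichever mouse was left out. With the mouse as a replicate block, 0 of 19541 rows differed between liver and the other organs (352 higher and 399 lower at an unadjusted p under 0.05). A dye effect passed in 1 row in the fit of 8 arrays (adjusted p = 0.0170) and in 0 rows by the difference of the 2 arrays of a mouse, where the smallest adjusted p was 0.276; the cause was not tested. Centring the arrays turned the sign of none of 51 genes or rows named.

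Read as Cy5 over Cy3, which the fine structure of the values goes against, 14 of the 51 kept their sign. The mean log2 ratios that turned were Hmgcs1 at 0.16, Fdps at 0.22, Sc5d at 0.16, Ebp at 0.27, Acly at 0.20, Scd1 at 0.21, Thrsp at 0.37 and Hey2 at 0.066. Likewise Mib1 was at -0.39, Cdk2 at 0.37, Cth at 0.59, Siah1a at -0.25, Cyp2f2 at 0.56, Cyp2c70 at 0.082, Nr0b2 at 0.081, Amacr at -0.39, Pklr at 0.14, Fbp1 at 0.31, Slc2a2 at 0.0198 and Apom at 0.35. Abca1 was at -0.0752, Gstm3 at 0.023, Cdh5 at 0.10, Hba-a1 at 0.23, H2-T23 at -0.058, Car5a at -0.84, Pagr1a at -0.66, Nptx2 at 0.0499, Gtpbp2 at 0.13 and Arhgef7 at 0.15. The rows of Ap2b1, Aldh3b1, Kif18b, Fbxw8, Camta2, Acsm1 and Dnajc15 were at -1.01, -1.29, 0.0127, 0.32, 0.36, 0.11 and 0.14. The sterol synthesis median was 0.13 in this reading, and 0.17 with the names as listed in place of the displaced ones.

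Leaving out a mouse turned the sign of Dll1 (-0.53 to 0.37, above 0 without mouse 4), Cdk2 (-0.14 to 0.046, without mouse 4), Manf (-0.10 to 0.22, without mouse 3), Siah1a (-0.17 to 0.27, without mouse 2) and Hba-a1 (-0.31 to 0.18, without mouse 3). Of 38 list medians, 20 moved beyond the spread between mice on the Cy3 arrays alone, 17 on the Cy5 arrays alone, 24 when read as Cy5 over Cy3, 11 with the names as listed and 4 without 1 mouse. With 4 mice and 1 pool, the number of arrays limits the precision of every value.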

Other observations

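Iron and haem genes were mixed, with 11 of 19 below 0 and a median of -0.03. Ireb2, an iron-sensing regulator of transcripts with iron-responsive elements, had mean log2 ratios of 0.47, 1.12, 1.98 and 0.18 in the 4 mice, a mean of 0.94 ± 0.80 (SD, n = 4, adjusted p = 0.895 in limma). Alas1, the first enzyme of haem synthesis, averaged 0.83 ± 1.27, with mouse 2 the highest at 2.55. Ftl1, the ferritin light chain, averaged -0.36 ± 0.34. None of the 19 was called.

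Among circadian clock genes 10 of 16 were below 0, with a median of -0.03, and Per1, a repressor of the clock, had 0.52, -0.09, 0.52 and 0.49 in the 4 mice. In the growth hormone axis 9 of 14 were above 0, with a median of 0.05. Of 32 proteasome genes 21 were below 0, with a median of -0.07, and Psmb2, a core subunit, had -0.29, -0.52, -0.60 and -0.14. Of the 20 genes within 5 Mb of Dll1 that were tested 12 were below 0, with a median of -0.08.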
